A study of Mus musculus with 6 samples.

Results

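The methylome of lung endothelial cells (EC) was compared between infant mice of 8 to 10 days and young adult mice of 8 to 12 weeks, with 3 samples per age, by bisulfite sequencing of whole genomes from tagmented DNA (T-WGBS), which reads the methylated share of each CpG. The animals were female C57BL/6N wild type mice. The cells had been sorted as CD31+ CD34+ cells without the surface markers of blood cells and lymphatic EC. Dead cells had been excluded by staining. The differentially methylated regions (DMRs) described below lay between genes, started from a low methylation level in infant EC and gained methylation by young adulthood. A DMR belonged to this set when it lay on chromosomes 1 to 19, its young adult mean was above its infant mean, its infant mean was below 50%, and its midpoint was outside every curated RefSeq gene body and more than 1 kb from every transcription start site (TSS). These limits selected 1753 of 18333 listed DMRs. Gain of methylation made up 54.1% of all listed DMRs and 77.0% of the 5905 autosomal DMRs placed between genes in the same way, and 23.9% of all listed DMRs were gains that started below 50%. The DMRs were thus chosen by their direction, their infant level, their place outside genes and a distance of more than 1 kb from a TSS, and these limits were not tested. A further 19 DMRs on chromosome X met the other limits and were not included.

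CpG methylation is written and maintained by DNA methyltransferases and removed by passive dilution or by oxidation through TET enzymes. Most of the genome between genes is highly methylated in differentiated cells, and stretches of low or intermediate methylation away from promoters are typical of enhancers, where transcription factors bind. A gain of methylation at such a stretch during development is known from enhancers that a cell stops using. The list of DMRs holds no expression or chromatin data, so that no DMR can be called an enhancer from it, and the identity of the sorted cells cannot be checked in it.

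The sequences of 10 DMRs are shown because they are among the largest gains, the DMRs with the most CpGs and the lowest infant levels, or lie beside the genes that recur below. All are on the plus strand of GRCm38 (mm10), lower case with every CpG in capitals, and each DMR begins and ends on a CpG except where the central part of a longer DMR is printed. The first is chr12:79879542-79879581 near 9430078K24Rik, which had the largest gain. The next are chr2:18049659-18049806 near Skida1, chr15:98935487-98935542 near Tuba1b, chr11:120207351-120207496 near 2810410L24Rik and chr10:8945229-8945273 near Sash1, also among the 10 largest gains. Then come the central 300 bases of the Ccn1 DMR with the most CpGs (chr3:145652049-145652348), the DMR with 15 CpGs at chr8:15519895-15520059 nearest to Myom2, and chr13:28948698-28948713 near Sox4, 1 of the 5 lowest infant levels. The last are chr5:76024387-76024532 upstream of Kdr and chr16:30122906-30122969 downstream of Hes1.
9430078K24Rik: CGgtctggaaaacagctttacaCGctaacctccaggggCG
Skida1: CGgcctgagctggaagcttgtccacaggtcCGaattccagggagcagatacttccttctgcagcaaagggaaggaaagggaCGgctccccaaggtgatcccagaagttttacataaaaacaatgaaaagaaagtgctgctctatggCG
Tuba1b: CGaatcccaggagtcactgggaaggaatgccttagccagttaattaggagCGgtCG
2810410L24Rik: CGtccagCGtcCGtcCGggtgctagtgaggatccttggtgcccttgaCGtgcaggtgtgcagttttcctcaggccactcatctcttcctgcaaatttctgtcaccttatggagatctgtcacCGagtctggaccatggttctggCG
Sash1: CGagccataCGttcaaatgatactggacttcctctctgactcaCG
Ccn1: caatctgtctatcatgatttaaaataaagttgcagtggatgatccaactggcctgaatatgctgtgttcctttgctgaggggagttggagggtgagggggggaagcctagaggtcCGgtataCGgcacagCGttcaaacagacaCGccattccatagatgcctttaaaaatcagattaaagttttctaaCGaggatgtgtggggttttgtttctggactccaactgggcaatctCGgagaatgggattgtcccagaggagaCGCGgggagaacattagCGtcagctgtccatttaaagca
Myom2: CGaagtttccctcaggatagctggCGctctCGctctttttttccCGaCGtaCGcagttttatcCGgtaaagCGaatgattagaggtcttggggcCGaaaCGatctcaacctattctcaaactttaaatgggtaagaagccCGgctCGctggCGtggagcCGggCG
Sox4: CGaaggctggCGtgCG
Kdr: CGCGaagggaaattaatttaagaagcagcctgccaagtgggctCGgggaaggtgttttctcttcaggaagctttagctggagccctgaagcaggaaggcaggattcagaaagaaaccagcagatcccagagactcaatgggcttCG
Hes1: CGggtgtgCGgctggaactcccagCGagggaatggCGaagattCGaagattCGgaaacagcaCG
The letters GGAAG, read on either strand, the core that ETS transcription factors bind, occurred 3 times in the Skida1 and in the Kdr sequence, and did not occur in those near 9430078K24Rik, Myom2, Sox4 and Hes1.

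The DMRs moved from low to intermediate methylation rather than to full methylation. The infant mean of a DMR, averaged by the authors over its CpGs and over the 3 samples, had a median of 30.0% with quartiles of 17.8% and 41.3%, and the young adult mean had a median of 57.3% with quartiles of 44.3% and 67.0%. The difference between the ages had a median of 25.3 percentage points and ranged from 10.2 to 54.1 points. It was at least 20 points in 1392 DMRs, at least 30 points in 440 and at least 40 points in 35. The young adult mean was at least 2 times the infant mean in 769 DMRs, or 43.9%. A young adult mean of 80% or more was reached by 22 of 1753 DMRs, and 42 stayed below 20%. The gain regions between genes that started at 50% or more, 2791 DMRs, had a median difference of 17.3 points and ended at a median of 88.4%. The sets were split by infant mean and no mean can exceed full methylation. Their differences and end levels therefore follow in part from the selection. The 1887 gains inside introns that started below 50% had a median difference of 26.2 points. The list holds no value per sample, so that the spread between mice of 1 age is unknown and no error can be given for any mean.

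**Figure D1:**
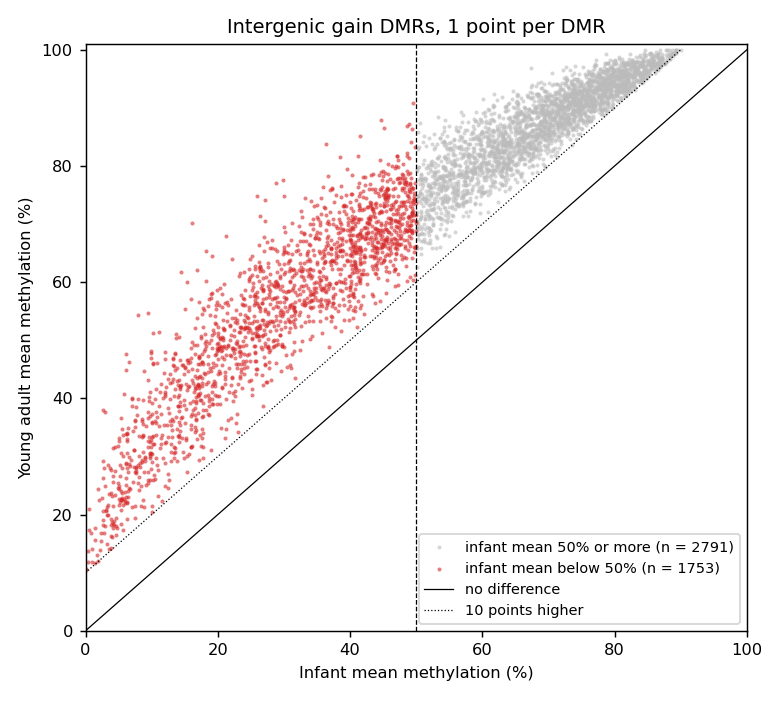
Infant against young adult mean methylation (both in percent) of the 4544 intergenic gain DMRs, 1 point per DMR, with the 1753 that started below 50% in red and the 2791 others in grey. The red points end at a median of 57.3% and the grey points at a median of 88.4%, levels set in part by the split. The dashed line marks the 50% limit of the selection.

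The limit at 50% cut a continuous range. The 5 DMRs just below it had infant means of 49.91% to 49.98% and differences of 18.9 to 23.8 points, and the 5 just above it, which were not included, had infant means of 50.07% to 50.11% and differences of 12.5 to 29.4 points. At the other end, 206 DMRs started below 10%. The 5 lowest were near Slc38a2 and Spring1, both at 0% in infant EC, and near Gm35135, Sox4 and Cd83 at 0.397%, 0.427% and 0.505%. Of these, 4 ended between 10.5% and 13.7%, whereas the DMR 122 kb downstream of the Cd83 TSS rose to 21.0%.

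The DMRs were short, with a median width of 116 bp and 3 to 17 CpGs. Exactly 3 CpGs, the smallest number that the authors listed, were held by 1236 of them (70.5%), and 198 had at least 5. The DMR with the most CpGs lay 2.21 kb upstream of Ccn1, which encodes the matricellular protein CYR61. It spanned chr3:145651920-145652478 with 17 CpGs and rose from 35.9% to 76.4%. A DMR with 15 CpGs, 462 kb from the nearest TSS (Myom2), changed from 23.1% to 34.2%, a difference of 11.1 points. The DMR with 10 CpGs near Dleu2 rose from 10.1% to 35.8%. Of the 4 DMRs with 9 CpGs, those near 1700112H15Rik and 70.1 kb downstream of the TSS of Irs1, an adaptor of insulin signalling, rose from 36.6% to 78.3% and from 35.0% to 71.2%. The other two, near Klf9 and Gse1, rose from 38.9% to 73.1% and from 6.36% to 34.9%.

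The largest single gain was the 40 bp DMR printed above for 9430078K24Rik, a noncoding RNA gene, which went from 16.0% to 70.1%, a difference of 54.1 points over 3 CpGs. The next DMR, at chr12:79879674-79880044, started lower and changed less, from 8.52% to 36.4%. Next in size was the DMR 1.28 kb upstream of Skida1, from 26.0% to 74.8%. The DMR 1.90 kb upstream of Adgra2, a receptor that acts in WNT signalling during brain angiogenesis, rose from 28.7% to 77.1%. The DMR 1.12 kb upstream of Tuba1b, an alpha tubulin gene, rose from 29.9% to 77.6%. A DMR 322 kb from its nearest TSS, that of the microRNA gene Mir181a-1, rose from 36.4% to 83.7%. Of these gains, those upstream of Skida1, Adgra2 and Tuba1b lay within 2 kb of a TSS, just beyond the limit of the selection. The 5 others of the 10 largest were 2 DMRs near the noncoding gene 2810410L24Rik (14.5% to 61.8% and 18.2% to 65.3%) and single DMRs near Myh9, a nonmuscle myosin gene (27.1% to 74.2%), Meis1, a homeobox gene (21.3% to 68.0%), and Sash1, a signalling scaffold gene (7.95% to 54.3%).

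The DMRs spread over 1218 nearest genes, of which 914 were nearest to a single DMR. The nearest gene gives a position and not a regulated gene. The gene nearest to the most DMRs was Gse1, which encodes a protein associated with histone deacetylases, with 11 DMRs, all upstream between 2.07 and 127 kb from the TSS. They had infant means of 2.79% to 41.5% and differences of 24.6 to 33.6 points. The 4 DMRs closest to the TSS lay within 522 bp of each other and had infant means of 2.79%, 6.36%, 9.43% and 32.3% and young adult means of 28.0%, 34.9%, 36.6% and 58.7%. Of the 24 listed DMRs nearest to Gse1, 23 gained methylation, against 54.1% of all listed DMRs. Genes are named here because gains lie near them, so that such counts are partly set by the selection. By the nearest protein-coding TSS, Gse1 and Tbx3 had 12 DMRs each.

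Kdr, which encodes the main VEGF receptor of EC, was nearest to 10 DMRs. Of these, 5 lay upstream, between 27.6 and 64.0 kb from the TSS, and 5 lay beyond the gene, between 56.7 and 178 kb from the TSS. The upstream DMRs rose from 35.6% to 60.3%, 33.8% to 66.6%, 7.48% to 36.1%, 22.1% to 63.9% and 36.5% to 70.2%, in order of distance. The DMRs beyond the gene rose from 4.41% to 27.6%, 17.2% to 56.6%, 23.3% to 54.6%, 17.3% to 40.9% and 17.2% to 40.5%. The infant levels of both sides overlapped, and the young adult level stayed at or below 56.6% at the downstream DMRs, whereas 4 of the 5 upstream DMRs exceeded 60%. The largest of these gains, 41.8 points, was the Kdr sequence printed above. Of 16 listed DMRs nearest to Kdr, 12 were gains and 4 were losses.

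Hes1, a transcriptional repressor induced by NOTCH signalling, was nearest to 6 DMRs. The DMR 12.1 kb upstream changed from 5.28% to 26.7%. The DMR 2.95 kb downstream of the TSS changed from 15.8% to 46.3%. Those at 46.6, 57.2, 57.6 and 69.4 kb downstream rose from 17.2% to 45.9%, 40.4% to 72.2%, 31.2% to 70.2% and 44.1% to 66.9%. All 8 listed DMRs nearest to Hes1 were gains, against 54.1% of all listed DMRs. The noncoding gene Dleu2 was nearest to 7 DMRs, all upstream, 5 of which lay between 6.25 and 7.40 kb from the TSS, with infant means of 4.49% to 20.9% and young adult means of 31.7% to 59.6%. The noncoding gene Platr26 was nearest to 9 DMRs. For 8 of these the nearest protein-coding TSS was that of Itga6, the alpha subunit of a laminin receptor, at 36.9 to 114 kb.

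**Figure D2:**
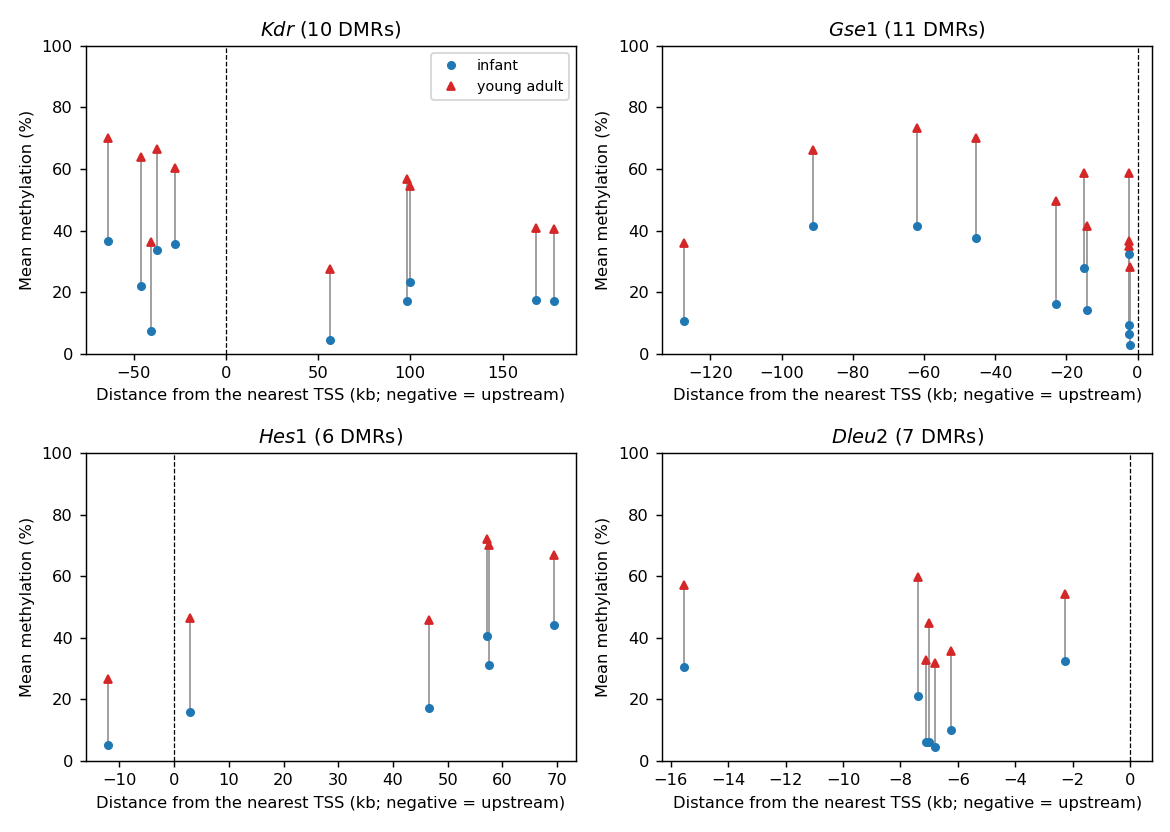
Infant (blue circles) and young adult (red triangles) mean methylation in percent of the DMRs nearest to Kdr, Gse1, Hes1 and Dleu2, against the distance from the TSS in kb, with upstream positions negative and 1 vertical line per DMR joining both ages. The 10 Kdr DMRs lie on both sides of the TSS, and all 11 of Gse1 and all 7 of Dleu2 lie upstream.

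Epha4, a receptor for ephrins, had 6 DMRs at 85.4 to 329 kb upstream with differences of 16.5 to 45.3 points. Sash1 had 6 upstream DMRs with differences of 13.1 to 46.4 points, beside 17 loss DMRs among the 24 listed nearest to it. Casz1, a zinc finger transcription factor of vascular assembly, had 6 upstream DMRs at 3.68 to 61.2 kb with differences of 15.0 to 32.9 points, and 22 of 31 listed DMRs nearest to it were losses. The noncoding gene Gm31314 had 6 DMRs with infant means of 17.9% to 30.2% and differences of 21.0 to 26.5 points, and the nearest protein-coding TSS of each was that of Tbx3, a T-box factor, at 163 to 300 kb. Zfp608, a zinc finger gene, had 6 DMRs at 141 to 493 kb upstream, of which 5 had an infant mean above 40%. Trp53i11 also had 6 DMRs and came after Zfp608 by the sum of its differences.

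Genes of EC identity were among the nearest genes. Of 37 genes in a list of EC markers, 12 were nearest to at least 1 DMR, together 30 DMRs or 1.71% of the set, against 1.23% of all listed DMRs and 0.788% of the intergenic gains that started at 50% or more. Of the intronic gains from below 50%, 0.848% were nearest to these genes. These shares were not tested. Without Kdr, which had 10 of the 30, the share was 1.14%, against 1.15% of all listed DMRs. The median difference of the 30 DMRs was 28.5 points, against 25.3 points over the whole set. After Kdr, the most DMRs belonged to Fli1, an ETS factor of EC, with 5 upstream DMRs at 2.54 to 31.8 kb that rose from 17.0% to 42.4%, 24.3% to 49.2%, 31.0% to 63.9%, 26.8% to 60.8% and 41.5% to 68.4% in order of distance. All 19 listed DMRs nearest to Fli1 were gains, against 54.1% of all listed DMRs, a count partly set by the selection. Sox17, a SOX factor of arterial EC, had 4 DMRs, of which the one 6.66 kb downstream of the TSS rose from 5.50% to 34.8% and the one 119 kb upstream from 45.4% to 74.7%. Flt1, the VEGF decoy receptor, had 2 upstream DMRs, from 6.07% to 28.9% at 22.1 kb and from 30.0% to 69.4% at 40.6 kb, while 14 of the 20 listed DMRs nearest to it were losses. Calcrl, a receptor gene of the same list, had 1 DMR, and 36 of the 37 listed DMRs nearest to it were losses. Hhex, a homeobox factor of early EC, had 2 upstream DMRs, from 15.6% to 42.1% at 1.76 kb and from 30.4% to 65.2% at 1.34 kb.

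Genes of growth factor and related signalling (FGF, VEGF, angiopoietin, PDGF, IGF, HGF, stem cell factor, ephrin and apelin ligands and receptors) were nearest to 29 DMRs (1.65%, against 1.01% of all listed DMRs), with 14 of 57 genes represented and Kdr, Flt1 and Tek shared with the marker list. Without Kdr these were 19 DMRs (1.08%, against 0.927%). The list did not hold every ephrin receptor, and Epha4, described above, was not in it. Fgfr2, an FGF receptor, had 3 DMRs at 16.7 to 25.6 kb upstream with a median infant mean of 29.1% and a median young adult mean of 59.5%. Aplnr, the apelin receptor, had 3 DMRs that rose from 29.0% to 59.6%, 30.4% to 58.3% and 26.4% to 52.6%. Kit, the stem cell factor receptor, had 2 DMRs. The single DMR of Tek, the angiopoietin receptor, lay 22.7 kb upstream and rose from 26.0% to 57.5%. Among the ligands, Pgf, a VEGF family member that binds FLT1, had 1 DMR 20.4 kb upstream, which rose from 40.4% to 61.5%.

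NOTCH pathway genes were nearest to 12 DMRs (0.685%, against 0.300% of all listed DMRs), 6 of which belonged to Hes1. Without Hes1 the share was 0.342%, against 0.256%. All NOTCH genes were nearest to 0.215% of the intergenic gains from 50% or more and 0.689% of the intronic gains from below 50%. Among the receptors and ligands, the DMR 3.07 kb upstream of Notch4 rose from 6.30% to 33.9%, that 4.22 kb upstream of Dll1 from 35.6% to 57.1%, and that of Jag1, 74.7 kb upstream, from 12.6% to 26.0%. Nrarp, a feedback inhibitor of the pathway, had 1 DMR on each side of its TSS, from 16.7% to 40.2% upstream and from 22.7% to 49.6% downstream. Dlk1, a noncanonical ligand gene, had 1 DMR at 136 kb. TGFβ and BMP genes were nearest to 16 DMRs (0.913%, against 1.37%), from 11 of 71 genes. Smad6 and Smad7, which encode the inhibitory SMADs, had 2 DMRs each, at 93.4 and 94.4 kb and at 55.9 and 56.1 kb downstream of the TSS, with median infant means of 31.6% and 39.3% and median young adult means of 58.4% and 73.1%. Of the listed DMRs nearest to these genes most were losses, 64 of 68 for Smad6 and 30 of 35 for Smad7. Smad5, an effector of BMP receptors, and the ligand genes Bmp2 and Bmp7 had 2 each.

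Semaphorin genes and their receptors were nearest to 10 DMRs (0.570%, against 0.807%), with 2 each for the receptor genes Plxnd1 and Plxnc1 and for the ligand gene Sema6d. WNT pathway genes were nearest to 9 DMRs (0.513%, against 0.387%), with 2 for the coreceptor gene Lrp6. WNT genes were nearest to 0.537% of the intergenic gains from 50% or more and 0.159% of the intronic gains from below 50%. Genes of the extracellular matrix were nearest to 0.537% of the intergenic gains from 50% or more and 1.91% of the intronic gains from below 50%. In the set described here they were nearest to 19 DMRs (1.08%, against 0.818% of all listed DMRs). Of these, Adamts9, a metalloprotease gene, had 4 DMRs, and Eln (elastin) and Hspg2 (perlecan) had 3 each. The Eln DMRs lay 8.94 to 32.0 kb upstream, with a median infant mean of 33.1% and a median young adult mean of 68.3%, and 6 of the 10 listed DMRs nearest to Eln were losses. The Hspg2 DMRs lay 6.66 to 7.59 kb upstream, where these medians were 39.0% and 69.1%. All 21 listed DMRs nearest to Hspg2 were gains, against 54.1% of all listed DMRs. A single DMR lay near Col15a1, a collagen gene of the basement membrane zone (38.4% to 69.4%). Developmental transcription factor genes other than HOX were nearest to 41 DMRs (2.34%, against 1.71%), from 24 of 165 genes, led by Sall1 and Prdm1 with 5 each and Meis1 and Otx1 with 3 each. The share was 2.40% in the intergenic gains from 50% or more and 3.23% in the intronic gains from below 50%. All listed DMRs nearest to Sall1 (9) and Otx1 (8) were gains, against 54.1% of all listed DMRs. Of those nearest to Meis1 15 of 19 were losses, and of those nearest to Prdm1 9 of 15. HOX genes were nearest to 3 (0.171%, against 0.169%), beside Hoxa10, Hoxb1 and Hoxc4. They were nearest to 0% of the intergenic gains from 50% or more and 0.424% of the intronic gains from below 50%. Of genes that act on DNA methylation, Gadd45g had 4 DMRs and Apobec2 had 1, together 0.285%, against 0.213% of all listed DMRs. This share was 0.322% in the intergenic gains from 50% or more and 0.318% in the intronic gains from below 50%. Genes of the cell cycle were nearest to 3 DMRs (0.171%, against 0.153%), 2 of Cdc7 and 1 of Wee1. The cell cycle share was 0.179% in the intergenic gains from 50% or more and 0.371% in the intronic gains from below 50%. Without Gadd45g the DNA methylation share was 0.0570%, against 0.147%, and without Cdc7 the cell cycle share was 0.0570%, against 0.125%. Without Hoxb1 the HOX share was 0.114%, against 0.164%.

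Lung capillary genes were nearest to 10 DMRs (0.570%, against 0.873%), arterial genes to 6 (0.342%, against 0.316%) and venous genes to 4 (0.228%, against 0.284%), of which 3 belonged to Ackr3, a chemokine scavenger receptor gene. Without Sox17 the arterial share was 0.114%, against 0.284% of all listed DMRs. All arterial genes were nearest to 0.430% of the intergenic gains from 50% or more and 0.742% of the intronic gains from below 50%. No DMR was nearest to 1 of the 8 lymphatic genes or of the 33 immune and erythroid genes, which were nearest to 0.0818% and 0.0164% of all listed DMRs. Epithelial genes were nearest to 1 DMR (Sftpb, surfactant protein B; 0.0570%, against 0.0982% of all listed DMRs) and mesenchymal and mural genes to 2 (Tbx4; 0.114%, against 0.0655%). Of 43 genes that the study named, a list that is not independent of these samples, 14 were nearest to 28 DMRs (1.60%, against 3.04% of all listed DMRs). Beside those already given, Fos, an AP-1 subunit gene, had 2 upstream DMRs, from 42.9% to 76.9% and from 45.5% to 70.3%. All 4 listed DMRs nearest to Fos were gains, against 54.1% of all listed DMRs. Kitl was nearest to 48 listed DMRs, and Sema6a to 49, of which 1 each was a gain, the DMR described here. For Kitl it rose from 42.5% to 70.1% at 58.3 kb upstream, and for Sema6a from 16.5% to 41.7% at 167 kb downstream of the TSS. When only protein-coding TSSs were used, an assignment chosen after seeing the data, DMRs in any list except the genes named by the study numbered 261 (14.9%, against 11.8% of all listed DMRs) instead of 170 (9.70%, against 8.73%). The lung capillary share was then above that of all listed DMRs, with 30 DMRs (1.71%, against 1.33%), and the cell cycle share was below it (0.171%, against 0.218%). Developmental transcription factor genes were nearest to 85 (4.85%, against 2.97%), HOX genes to 10 (0.570%, against 0.289%) and immune and erythroid genes to 2 (0.114%, against 0.0327%).

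The DMRs often lay in company of other gains. Another gain DMR was present within 5 kb of 474 of the 1753 (27.0%, 95% Wilson interval 25.01 to 29.2%), against 11.9% (10.8 to 13.2%) of the intergenic gains that started at 50% or more. The odds ratio was 2.74 (2.3 to 3.2) with an adjusted p of 5.00e-36 in Fisher's exact test. Intronic gains that started below 50% had a gain neighbour more often still, in 37.4%, with an odds ratio of 0.62 for the intergenic over the intronic DMRs (adjusted p = 1.46e-10, Fisher's exact test). Among the intergenic gains the share was 28.2 to 32.0% in the 10-point classes of infant methylation below 40%. It was 19.9% at 40 to 50% and 19.1% at 50 to 60%, on either side of the limit. A loss DMR within 5 kb was rarer, at 3.65% against 2.65% of the intergenic gains from 50% or more and 5.25% of the intronic gains, and neither comparison passed the threshold of 0.05 in Fisher's exact test (adjusted p = 0.123 and 0.0531). The median CpG density in 500 bp was 1.6 CpGs per 100 bp for the DMRs described here and for the intronic gains, and 1.2 for the intergenic gains from 50% or more. Its part in these differences was not tested. Here and below, tests were two-sided, counted each DMR as independent although DMRs of 1 run are not, and were adjusted over 29 tests.

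Gain DMRs that followed each other with gaps of at most 10 kb were joined to runs. The DMRs fell into 1487 runs, of which 1297 held a single one, 175 held 2 or 3 and 15 held 4 or more. No loss DMR lay inside any of these 15. The run with the most held the 7 DMRs upstream of Dleu2 in 13.4 kb (chr14:61684607-61697968), with young adult means of 31.7% to 59.6%. The Platr26 run held 6 in 15.1 kb. The longest of the 15, at chr2:93112499-93152437, held 5 between Prdm11 and Trp53i11, with infant means of 5.53% to 36.1% and young adult means of 22.5% to 63.3%. The run near Mir7237 held 5 in 1.68 kb, where infant means of 9.94%, 11.9%, 26.3%, 28.8% and 49.6% became 48.2%, 44.4%, 62.7%, 60.2% and 60.3%, so that the DMRs were closer to each other in young adult than in infant EC. This did not hold in every run, since the means between Prdm11 and Trp53i11 had a wider range in young adult than in infant EC. Near Hoxb3os, 4 DMRs within 344 bp had infant means of 9.47% to 17.8% and young adult means of 43.1% to 55.6%, within a run of 21 gain DMRs.

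**Figure D3:**
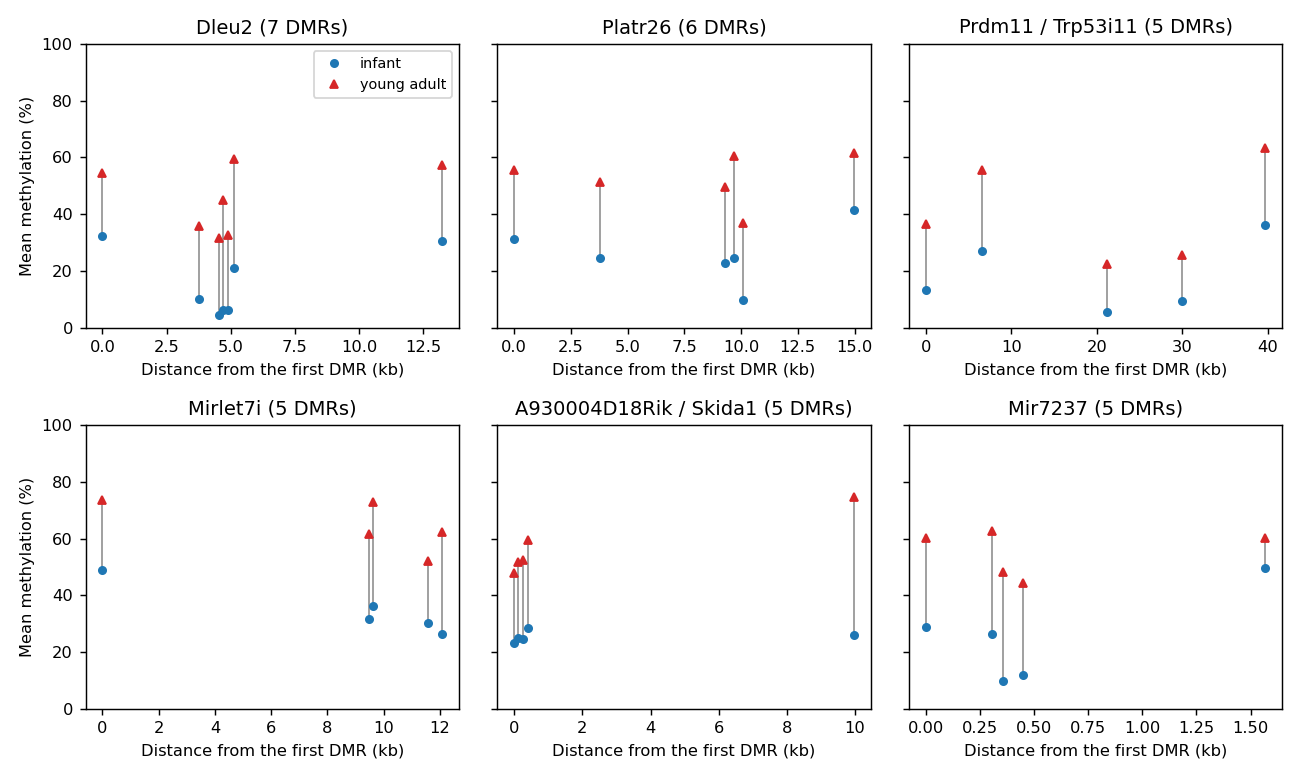
Infant (blue circles) and young adult (red triangles) mean methylation in percent of the DMRs in 6 runs, against the distance in kb from the first DMR shown, each panel named for the nearest genes. Within a run the young adult value is above the infant value at every DMR by selection, and neighbouring DMRs start from different infant levels, as from 4.49% to 32.3% near Dleu2.

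CpG content differed from that of gains that started higher. CpG islands were built from windows of 200 bp with at least 50% GC and an observed over expected CpG ratio above 0.6. Such windows were joined where they overlapped or touched, and the joined stretch was not tested again. This loose rule gave 177582 islands on chromosomes 1 to 19 and X, against 21348 under the rule for islands of at least 500 bp used below. Of the 1753 DMRs, 278 overlapped an island (15.9%, 14.2 to 17.6%), against 9.14% (8.12 to 10.3%) of the intergenic gains from 50% or more. The odds ratio was 1.87 (1.56 to 2.25, adjusted p = 1.00e-10, Fisher's exact test). The share in intronic gains that started below 50% was 16.0%, and the odds ratio of 0.99 had an interval of 0.83 to 1.19. Islands of at least 500 bp with stricter limits were overlapped by 48 DMRs (2.74%), against 0.573% of the gains from 50% or more. Around most DMRs CpGs were sparse, since a ratio of at least 0.6 in the 500 bp window was found for 3.82%, against 1.68% of the gains from 50% or more (odds ratio 2.32, adjusted p = 5.05e-05, Fisher's exact test). By 10-point class of infant methylation, the island share was 24.8% below 10% and 9.27% at 40 to 50%, with 15.5 to 18.8% in the 3 classes between them. The class just above the limit, 50 to 60%, had 8.45%.

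Few of the DMRs lay in repeats. The midpoint fell in a repeat-masked base in 197 (11.2%, 9.84 to 12.8%), against 24.1% (22.5 to 25.7%) of the intergenic gains from 50% or more, with an odds ratio of 0.40 (0.34 to 0.47, adjusted p = 4.70e-27, Fisher's exact test). The intronic gains from below 50% had 10.7%, and the interval of the odds ratio, 0.86 to 1.31, included 1. The share was 5.83% below 10% infant methylation and 29.1% between 80 and 90%. The read coverage behind a DMR is unknown.

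**Figure D4:**
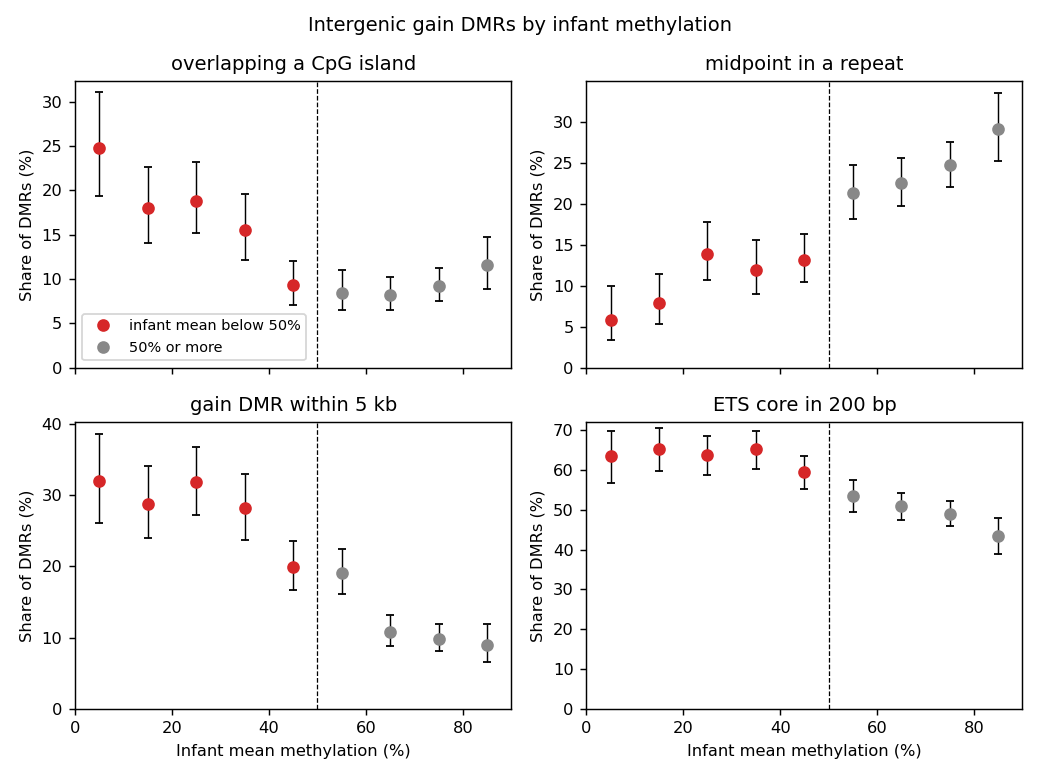
Shares in percent, with 95% Wilson intervals, of the intergenic gain DMRs that overlapped a CpG island, had their midpoint in a repeat, had another gain DMR within 5 kb or held the ETS core GGAAG in the central 200 bp, by 10-point class of infant methylation (red below 50%, grey from 50%). The island share is 24.8% in the lowest and 9.27% in the highest red class. The repeat share rises from 5.83% in the lowest to 29.1% in the highest of all classes, apart from a drop from 13.9% to 11.9% within the red classes.

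The DMRs lay closer to a TSS than intergenic gains that started higher, both sets being limited to distances of more than 1 kb. The median distance to the nearest TSS was 33.5 kb, against 49.1 kb. Within 10 kb of a TSS lay 366 DMRs (20.9%, 19.04 to 22.8%), against 15.1% (13.8 to 16.5%), with an odds ratio of 1.48 (adjusted p = 3.60e-06, Fisher's exact test). By 10-point class of infant methylation this share was 19.9 to 24.9% in the classes below 40% and 16.4% at 40 to 50%. In the class just above the limit, 50 to 60%, it was 17.1%, so that there was no step at the limit. Beyond 50 kb lay 698 (39.8%), against 49.7%, with an odds ratio of 0.67 (adjusted p = 3.42e-10, Fisher's exact test), and 20 were more than 500 kb away. An upstream position was found for 62.7%, against 59.4%, which did not pass the threshold (adjusted p = 0.0700, Fisher's exact test). The intergenic losses and the intronic gains from below 50% had shorter median distances, 24.4 kb and 21.1 kb, which were not tested. Every autosome held DMRs of the set described here, from 6.04% of the listed DMRs of chromosome 19 to 13.6% of those of chromosome 13. Predicted RefSeq transcripts, which the selection did not use, covered 418 of the DMRs (23.8%).

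Of 16 short motifs searched on both strands in the central 200 bp, 3 were more frequent than in the intergenic gains from 50% or more at equal GC content. The ETS core (GGAAG) was present in 1105 of 1753 windows (63.0%, 60.7 to 65.3%), against 49.6%, 61.5% of the intronic gains from below 50% and 55.5% of all listed DMRs. Its odds ratio within 5 classes of GC content was 1.55 (1.37 to 1.76, adjusted p = 4.17e-11, Mantel-Haenszel test, n = 1753 and n = 2791 DMRs). The SOX core (ACAAT) was present in 30.5% against 30.0%, with an odds ratio of 1.26 within GC classes (adjusted p = 0.00237, Mantel-Haenszel test, n = 1753) and a share of 27.2% in all listed DMRs. The GATA core (AGATAA) was present in 11.6% against 11.0% (odds ratio 1.28, adjusted p = 0.0372, Mantel-Haenszel test, n = 1753), and in 11.7% of all listed DMRs. Families of ETS, SOX and GATA factors include regulators of EC genes. When the classes were made by the number of CpGs in the window instead, the ETS odds ratio was 1.72, while those of SOX and GATA were 1.12 and 1.11 and no longer passed (adjusted p = 0.178 and 0.399, Mantel-Haenszel test, n = 1753). Among DMRs with at least 5 CpGs no motif passed the threshold, ETS included.

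The other cores did not pass the threshold at equal GC content. The KLF/SP core (GGGNGG) was in 39.6% of the windows against 30.8% (odds ratio 1.15, adjusted p = 0.0971, Mantel-Haenszel test, n = 1753, with 37.8% of all listed DMRs), the nuclear receptor core (AGGTCA) in 16.5% against 13.4% (13.1%), the CTCF core (AGGNGGC) in 14.4% against 10.5% (12.4%) and the E-box (CAGNTG) in 45.4% against 42.9% (42.2%). The shares of the NFI core (TTGGC), TEAD (GGAATG), RUNX (TGTGGT), AP-1 (TGANTCA), STAT (TTCNNNGAA), homeodomain (TAATTA) and FOX (TGTTTAC) cores were 31.6%, 12.9%, 12.8%, 6.67%, 7.82%, 6.10% and 3.42%. In the intergenic gains from 50% or more, against which they were tested, these were 29.2%, 11.7%, 14.0%, 6.70%, 7.67%, 6.16% and 2.76%. In all listed DMRs, which were not part of the test, they were 33.4%, 11.7%, 13.8%, 6.54%, 6.52%, 4.32% and 4.36%. MEF2 (TAAAAATAG) and NRF1-like (GCGCATGC) letters were found in 5 and 6 windows, 0.285% and 0.342%, against 0.475% and 0.409% of all listed DMRs. The KLF/SP and CTCF letters can match the same bases. A match of letters is a description of the sequence and does not show that a factor binds.

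**Figure D5:**
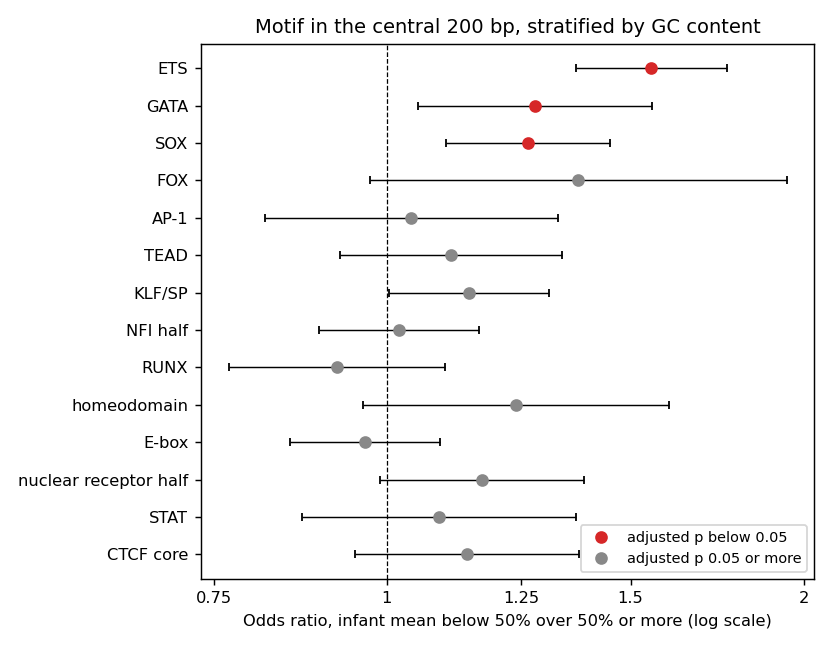
Odds ratios, on a log axis with 95% intervals, of 14 motifs in the central 200 bp of intergenic gain DMRs that started below 50% over those that started at 50% or more, within 5 classes of GC content, with adjusted p-values below 0.05 in red. The ETS core has the highest odds ratio, 1.55, and the intervals of the grey motifs other than KLF/SP include 1.

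Some DMRs overlapped elements that RefSeq annotates as functional, most of them enhancers from mouse embryo assays. There were 18 such DMRs (1.03%), against 0.466% of the intergenic gains from 50% or more, 1.22% of the intronic gains from below 50% and 0.147% of the intergenic losses. These shares were not tested. The 18 DMRs included some in enhancers active in forebrain, neural tube, somite, heart, limb or branchial arch. Others lay in regions that regulate a gene in mouse embryonic stem cells, and some DMRs shared an element. The examples that follow, which include an element annotated for blood vessels, were chosen after their values were seen. The DMR chr5:92997233-92997339, 47.7 kb from the TSS of Sowahb, lay in an enhancer active in limb and blood vessels of the embryo and rose from 44.8% to 76.4%. Upstream of Cfap161, 3 DMRs lay in an enhancer active in limb and branchial arch and rose from 19.1% to 58.1%, 11.1% to 51.5% and 9.93% to 47.7%.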

How the data were processed

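EC were sorted from lungs of infant and young adult mice (3 samples each). The authors trimmed adaptors of the T-WGBS libraries with SeqPrep, aligned the reads to mm10 with BWA 0.6.1 and then removed duplicates with Picard. Bases of quality 20 or more were used and 9 bp at tagmented ends were left out. The authors called DMRs in R 3.2.2 with bsseq on unsmoothed data, from CpGs covered at least 8-fold in 2 of 3 samples per age, as at least 3 consecutive CpGs with p below 0.05 in their t-test and means at least 10% apart. The deposited list gives each age's mean methylation as a fraction, the authors' mean over CpGs and samples, without values or coverage per sample. The depth behind a DMR is therefore unknown, and no interval given here covers the error of a mean. Since DMRs were listed for their difference, its size is that of selected regions.

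Here fractions were multiplied to percent. Starts and ends, which are 0-based positions of the first and last C, were converted to 1-based regions that include the last G. Gene bodies and TSSs were those of 45657 curated RefSeq transcripts of 26089 genes, and sequences were read from the GRCm38 genome of RefSeq. Islands and motifs were computed from it, and soft-masked bases were taken as repeats. Shares were compared with Fisher's exact test (SciPy 1.17.1), motifs with the Mantel-Haenszel test in 5 GC classes (statsmodels 0.14.6), each tested on simulated data, and p-values were adjusted by the Benjamini-Hochberg method over all 29 tests. Wilson intervals cover the counting of DMRs only.

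The DMRs, gene lists, motifs and tests were chosen with earlier results of these data known. Genes named are the 10 nearest to the most DMRs, up to 5 per list and those that the study names. Of these, 1 gene is not reported here and some are given by their counts only. DMRs named are the 10 with the largest difference, the 5 with the most CpGs, the 5 lowest in infants, those next to the 50% limit, and the longest runs; Calcrl, Trp53i11, Tbx3, the Klf9 DMR, and DMRs near Jag1, Mir7237 and Hoxb3os and in annotated enhancers were chosen after their values were seen, as were the protein-coding TSS and the shares of a list without its gene with the most DMRs. Of 19 lists, genes were assigned by the nearest curated TSS. RNA data were not used here.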

Additional observations from a re-analysis of the deposited data

How the results depend on the processing

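No paired analysis was possible because the list gives only the mean of each age, and for the same reason no replicate could be left out. The limits set the number of DMRs, which was 873 with an infant mean below 30% and 198 with at least 5 CpGs, and with it the DMRs nearest to listed genes, 70 and 19 in place of 170; these were 261 by the nearest protein-coding TSS, chosen after seeing the data. With at least 5 CpGs only 77 intergenic gains from 50% or more were left for comparison. There the odds ratios against them were 2.25 for islands, 2.47 for high CpG content, 2.01 for a gain neighbour, 1.64 for a TSS within 10 kb and 0.61 for a TSS beyond 50 kb, and that against intronic gains for a gain neighbour was 0.81. These kept their direction without passing the threshold (lowest adjusted p = 0.181, Fisher's exact test). No motif (0) passed there, in the Mantel-Haenszel test. With a difference of at least 20 points high CpG content also did not pass (odds ratio 2.02, adjusted p = 0.0695, Fisher's exact test), and 1 motif, ETS, passed, against 6 in 400 bp windows.

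Some comparisons passed only under an alternative. The upstream position did with 1 DMR per run (odds ratio 1.21). The loss neighbour did against gains from 50% or more with predicted transcripts included (1.64) or within 20 kb (1.63), and against intronic gains more than 5 kb from every TSS (0.61). The repeat share passed under every alternative run, with odds ratios of 0.23 to 0.49. With 1 DMR per run, the odds ratio of a gain neighbour was 2.33, that of islands 1.64 and that of ETS 1.54. The direction of no comparison that passed the threshold was reversed. ETS lost its call in the set with at least 5 CpGs (1.22). Without coverage or values per sample, the error of a single DMR cannot be given.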
